A study of Danio rerio with 27 samples.

Results

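The genes described here are 37 zebrafish genes of the cell division cycle and of DNA replication, chosen by their symbols and described across 9 tissues. They comprise cyclins and cyclin-dependent kinases, proteins that license origins of replication and unwind DNA, proteins of the replication fork and of deoxynucleotide supply, and proteins of mitosis. Of the 37 symbols, 36 were found among the symbols of the 32524 gene identifiers in the tables, with case ignored. 34 of them belonged to 1 identifier each. The other 2, mcm6 and rrm2, belonged to 2 identifiers each, so that 38 identifiers were described. The symbol birc5a was matched by no identifier, and the identifier listed as BIRC5 is given separately and is not counted among the 38. All 38 reached 1 TPM (a measure of transcript abundance scaled by transcript length and to the same total in every library, so that it can be compared between genes) in at least 3 of the 27 libraries, as did 25245 identifiers in all. 5 of the 38, namely aurkb, ccna1, ccnb2, gins2 and the minor of the 2 mcm6 identifiers (ENSDARG00000033231), did so only when the testis libraries were counted, and the remaining 33 passed without testis.

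The libraries were made from poly(A)-selected RNA of testis, spleen, heart, muscle, brain, tail, intestine, skin and liver of adult wild-type zebrafish of the TLAB strain, a cross of AB and Tüpfel longfin stocks, with 3 libraries per tissue and no treatment. The study's methods give 1 age range for all of its fish, from young adults to animals past their first year, and neither they nor the labels give the age or sex behind each library. The labels do not say whether replicates came from separate fish, so p-values measure the spread between these libraries, which may be technical. The estimated counts of 26 libraries summed to between 5100481 and 14151312, and those of testis replicate 3 to 91119844. In whole tissue RNA, fewer cells of a type and less RNA per cell cannot be told apart.

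Marker genes placed most libraries with their labels, but did not set skin apart from muscle or tail. The 7 germ cell markers matched in the table summed to 3297 to 4055 TPM in testis and to at most 43.5 TPM elsewhere, in muscle replicate 2. Several tissues shared markers. Muscle markers reached 22782 TPM in a skin library against 19868 to 28888 TPM in muscle. Skin markers reached 43432 TPM in tail and stood at 6282 TPM to 10727 TPM in muscle, against 2382 to 4705 TPM in skin. Results for skin and muscle below thus go by the labels. The 4 tail fin markers set tail only narrowly apart, at 22.0 TPM to 69.9 TPM against 20.1 TPM in testis replicate 1. Of these, and1 was at 14.5 TPM in both brain replicate 2 and tail replicate 1. Liver markers reached 42991 TPM in an intestine library against at least 174825 TPM in liver, and erythroid markers in heart replicate 2 (18320 TPM) came close to the lowest spleen library (18879 TPM).

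A dividing cell licenses each origin of replication in G1, when the loading factors Cdc6 and Cdt1 place the Mcm2-7 helicase on DNA, and fires these origins in S phase once Cdc45 and the GINS complex have joined the helicase. The sliding clamp Pcna, the flap nuclease Fen1 and DNA ligase 1 then complete the lagging strand, with deoxynucleotides made by ribonucleotide reductase. Cyclins E and A with Cdk2 and cyclins A and B with Cdk1 drive S phase and mitosis, and Aurora and Polo kinases, kinesins and the anaphase-promoting complex carry out chromosome segregation. In testis, spermatogonia divide by mitosis and spermatocytes replicate their DNA before meiosis. Blood-forming tissue, gut and the basal epidermis are other known sites of division in adult fish.

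Testis held every one of these genes at a higher level than the other tissues. The median over the 38 identifiers of the mean level was 105.7 TPM in testis and 0.220 TPM to 2.69 TPM in the 8 other tissues. Together they summed to 5704, 4886 and 5342 TPM in the testis libraries and to at most 340.8 TPM in any other library. In 37 of the 38, the lowest testis library was above the highest of the 24 other libraries, by 3.66-fold (ccne1) to 44.1-fold (ccnb2). The 5 identifiers that passed the filter only with testis are among the 37, so their separation is a description. Without them the largest fold was 42.0 (cdk2). Of all 25245 identifiers tested, 26.3% were separated in that way, and 8.01% passed the filter only with testis. The exception was the minor rrm2 identifier (ENSDARG00000020711).

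Against the mean of the 8 other tissues, in a limma fit on log2(TPM + 1) across all genes, all 33 identifiers that passed the filter without testis rose, as did the other 5. A call here and in what follows required that the log2 fold change be 1 or more in size and that the Benjamini-Hochberg adjusted p be below 0.05. Of all genes tested, 46.9% were called higher in testis by the same rule. The log2 fold changes of the 38 ran from 2.98 (ccne1) to 6.85 (top2a), with a median of 5.54 against 0.89 for all genes. The scale adds 1 TPM to each value and so understates the change of genes that are low elsewhere. Since the median of all genes was itself raised, the contrast was repeated after median-of-ratios rescaling of the libraries, which moved that median to -0.01. Then all 33 were again called, as were the other 5, against 22.7% of all genes. The log2 fold changes of the 38 then ran from 1.93 to 5.69. Over all genes, the split between calls higher and lower in testis went from 11843 against 1312 to 5740 against 4167 with the rescaling.

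**Figure D1:**
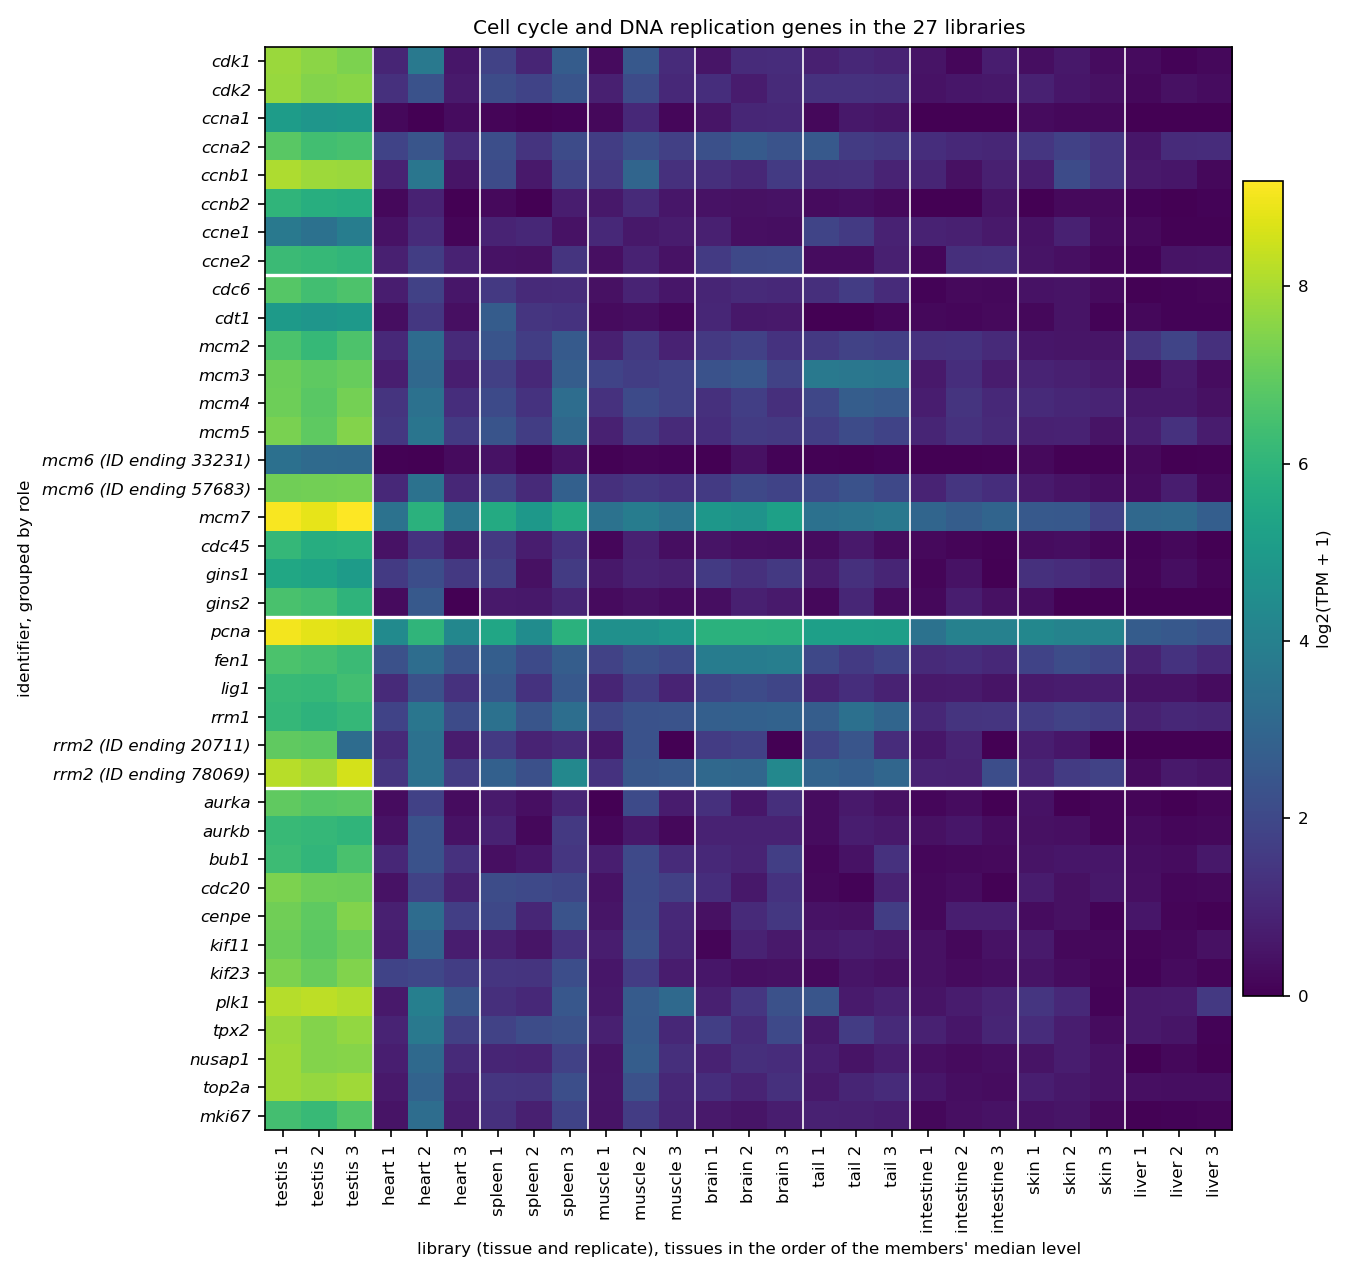
Level of each of the 38 identifiers (rows, grouped by role) in each of the 27 libraries (columns), as log2(TPM + 1) on a colour scale from 0. The identifiers of mcm6 and rrm2 are told apart by the last digits of their ID. The 3 testis columns are the brightest in each row, except for testis replicate 3 in the row of the minor rrm2 identifier, and heart replicate 2 is brighter than heart replicates 1 and 3 in 36 of the 38 rows.

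**Figure D2:**
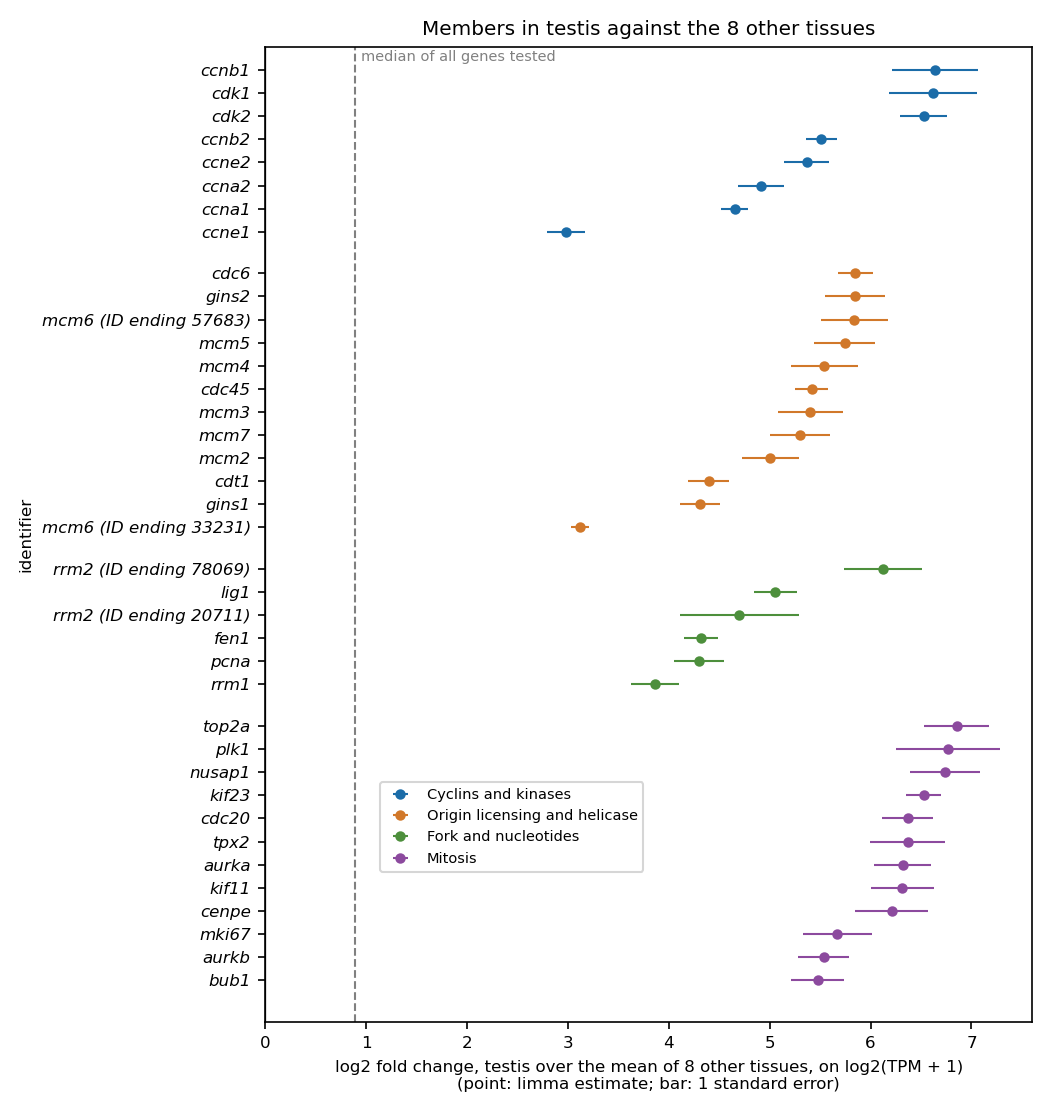
Log2 fold change of each identifier in testis over the mean of the 8 other tissues, from limma on log2(TPM + 1), with bars of 1 standard error. All 38 lie to the right of the dashed line, the median of all genes tested (0.89), and those of mitosis lie between 5.48 and 6.85.

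The 12 mitotic genes had the highest median, a log2 fold change of 6.34 in testis. top2a, whose topoisomerase untangles sister chromatids, stood at 232.8, 213.5 and 233.5 TPM in the testis libraries and at 0.240 TPM to 6.60 TPM, with a median of 0.741 TPM, in the 24 others. Its log2 fold change was 6.85 ± 0.32 (SE), with an adjusted p of 4.8e-15 by limma. plk1, the Polo kinase of mitotic entry, stood at 285.8, 310.8 and 277.6 TPM in testis and at 0.0725 TPM to 14.7 TPM elsewhere, a log2 fold change of 6.76 ± 0.51. nusap1, which bundles spindle microtubules, stood at 236.8, 175.6 and 180.1 TPM against 0 to 7.71 TPM, a log2 fold change of 6.73 ± 0.35. In all 3 genes the groups did not overlap, and the highest library outside testis was heart replicate 2.

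The rest of this group lay close behind. The cytokinesis kinesin kif23 had a testis mean of 156.8 ± 23.7 TPM (SD, n = 3) and a log2 fold change of 6.53. cdc20, an activator of the anaphase-promoting complex, had 149.4 ± 14.8 TPM and tpx2, which activates Aurora A on the spindle, 202.2 ± 22.7 TPM, both with a log2 fold change of 6.37. The Aurora kinases aurka and aurkb had 115.0 ± 7.95 TPM and 68.4 ± 4.91 TPM. The spindle kinesin kif11 had 130.9 ± 13.5 TPM and the kinetochore kinesin cenpe 146.5 ± 27.5 TPM. The checkpoint kinase bub1 had 79.0 ± 13.8 TPM, and mki67, the gene of the proliferation antigen Ki-67, had 86.3 ± 15.3 TPM. The smallest log2 fold change of the group was that of bub1, at 5.48. The identifier listed as BIRC5, the symbol of the survivin subunit of the chromosomal passenger complex, had 103.5 ± 17.8 TPM in testis and a mean of 0.590 TPM over the 8 other tissues, a log2 fold change of 6.10 ± 0.24.

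The 8 cyclins and kinases had a median log2 fold change of 5.44 and the widest range, from 2.98 to 6.63. The mitotic cyclin ccnb1 stood at 267.4, 226.2 and 224.4 TPM in testis and at 0.138 TPM to 11.3 TPM, median 1.176 TPM, elsewhere, a log2 fold change of 6.63 ± 0.43. Its partner kinase cdk1 stood at 219.9, 192.8 and 165.4 TPM in testis and at 0.0708 TPM to 12.1 TPM elsewhere, a log2 fold change of 6.62 ± 0.43. cdk2, the kinase of S phase entry, had almost the same testis mean, 193.4 ± 20.05 TPM. The other B-type cyclin, ccnb2, had 56.0 ± 7.15 TPM, and the A-type cyclins ccna1 and ccna2 had 29.7 ± 2.78 TPM and 96.3 ± 15.7 TPM. ccna1, which in the mouse is needed for male meiosis, was at 0 to 1.08 TPM in the 24 libraries outside testis. Of the E-type cyclins, which start S phase with Cdk2, ccne2 had 70.8 ± 5.78 TPM in testis. ccne1 stood at 12.1, 9.75 and 13.7 TPM there and at 0.0418 TPM to 2.66 TPM elsewhere. That log2 fold change, 2.98 ± 0.19 with an adjusted p of 1.1e-12 by limma, was the smallest of the 38.

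The 12 identifiers of origin licensing and the helicase had a median log2 fold change of 5.41. mcm7, a subunit of the Mcm2-7 ring, was the most abundant gene of the set, with 552.5, 454.4 and 581.3 TPM in testis. The other subunits were lower and close to each other: mcm2 had 87.5 ± 15.0 TPM, mcm3 130.3 ± 11.2 TPM, mcm4 135.8 ± 20.7 TPM, mcm5 151.1 ± 29.7 TPM and the major mcm6 identifier (ENSDARG00000057683) 149.2 ± 4.53 TPM. The minor mcm6 identifier stood at 9.50, 8.15 and 7.75 TPM in testis and at 0 to 0.376 TPM elsewhere, a log2 fold change of 3.12 ± 0.09. The tables give both identifiers the same symbol, so which of them is the canonical mcm6 is uncertain here, and reads shared between near-identical copies could have been split between them. The helicase loaders cdc6 and cdt1 had 96.0 ± 11.5 TPM and 29.3 ± 1.88 TPM. Of the factors that activate the helicase, cdc45 had 58.5 ± 9.03 TPM and the GINS subunit gins2 79.2 ± 15.5 TPM. The GINS subunit gins1 stood at 43.7, 38.7 and 31.7 TPM, with a log2 fold change of 4.31 ± 0.19, among the 5 smallest of the set.

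The 6 identifiers of the fork and of nucleotide supply had the lowest median, 4.51, and the highest levels outside testis. pcna stood at 513.4, 449.5 and 416.1 TPM in testis, and in the 24 other libraries at 3.91 TPM to 63.2 TPM with a median of 22.1 TPM. Its log2 fold change was 4.30 ± 0.25. rrm1, the large subunit of ribonucleotide reductase, stood at 68.3, 60.1 and 68.5 TPM against 0.795 TPM to 11.3 TPM, a log2 fold change of 3.86 ± 0.24. Both were expressed in each of the 27 libraries. fen1 had 86.6 ± 9.49 TPM and lig1, the gene of DNA ligase 1, 75.1 ± 7.36 TPM.

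The small subunit of ribonucleotide reductase, rrm2, was the symbol for which a testis library fell below a library of another tissue. The minor identifier stood at 121.7, 114.7 and 8.44 TPM in testis replicates 1 to 3, and the last value was below that of heart replicate 2 (9.65 TPM). The major identifier (ENSDARG00000078069) stood at 295.3, 245.7 and 385.8 TPM. Testis replicate 3 was thus the lowest library of the group for one identifier and the highest for the other. The sum of both was 417.0, 360.5 and 394.3 TPM, a narrower range. Outside testis the minor identifier was at 0 TPM in replicate 3 of brain, intestine, muscle and skin. Replicates 1 and 2 of those tissues had 0.471 TPM to 3.95 TPM. The minor identifier was also lowest in replicate 3 of heart and tail, but not of liver or spleen. The table does not say how the 2 identifiers relate, and the part of reads shared between them was not tested. The call in testis held for each (log2 fold change 4.70 ± 0.59 and 6.12 ± 0.39).

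Within related pairs, the ratio of the members in each library was compared between the 3 testis libraries and the 24 others by an exact permutation test (two-sided, all 2925 assignments, Benjamini-Hochberg adjustment over 5 pairs). Libraries of 1 tissue are not independent draws of tissues, so these p-values do not measure the spread between tissues. ccne1 was below ccne2 in testis, with TPM ratios of 0.158, 0.138 and 0.211. The log2 ratio of (TPM + 1) was -2.49 ± 0.30 (SD, n = 3) in testis and -0.10 ± 0.79 in the other libraries, and all 24 of them lay above all testis libraries (difference -2.39, exact p = 0.00034, the smallest that the assignments can give, adjusted p = 0.0017). The order was not particular to testis, since ccne1 was above ccne2 in 0 of 3 libraries in brain and in heart. Mean levels of ccne1 and ccne2 were 0.444 TPM and 2.67 TPM in brain, and 11.8 TPM and 70.8 TPM in testis. At levels as low as those in brain, the added 1 TPM draws the log2 ratio towards 0. In tail the order was the opposite, with a mean of 1.81 TPM for ccne1 and 0.405 TPM for ccne2, and ccne1 was above ccne2 in all 3 tail libraries. With a pseudocount of 0.01 the difference for ccne1/ccne2 was -2.36 with an exact permutation p of 0.067, and from estimated counts per effective length it was -1.67 with p = 0.081.

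In 3 of the 5 pairs a member (aurkb, ccnb2 or ccna1) passed the filter on low values only through testis, so their ratios are given as descriptions. Their p-values entered the adjustment over 5 pairs but are not given. The log2 ratio of aurka/aurkb was 0.74 ± 0.10 in testis (SD, n = 3) and -0.04 ± 0.41 in the other libraries, and 1 of the 24 was above all testis libraries. For ccnb1/ccnb2 the difference between testis and the others was 1.12 with a pseudocount of 1, -0.15 with 0.1 and -1.181 with 0.01. ccnb2 was at or under 3 counts in all libraries of 4 tissues, and the ratio of mean TPM was 4.27 in testis and 7.10 over the 8 other tissues. For ccna1/ccna2 the difference was -0.26, and 1.47 with a pseudocount of 0.1. For cdk1/cdk2, both of which passed without testis, it was 0.09 (exact permutation p = 0.71), with TPM ratios of 1.02, 1.096 and 0.876 in the testis libraries.

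**Figure D3:**
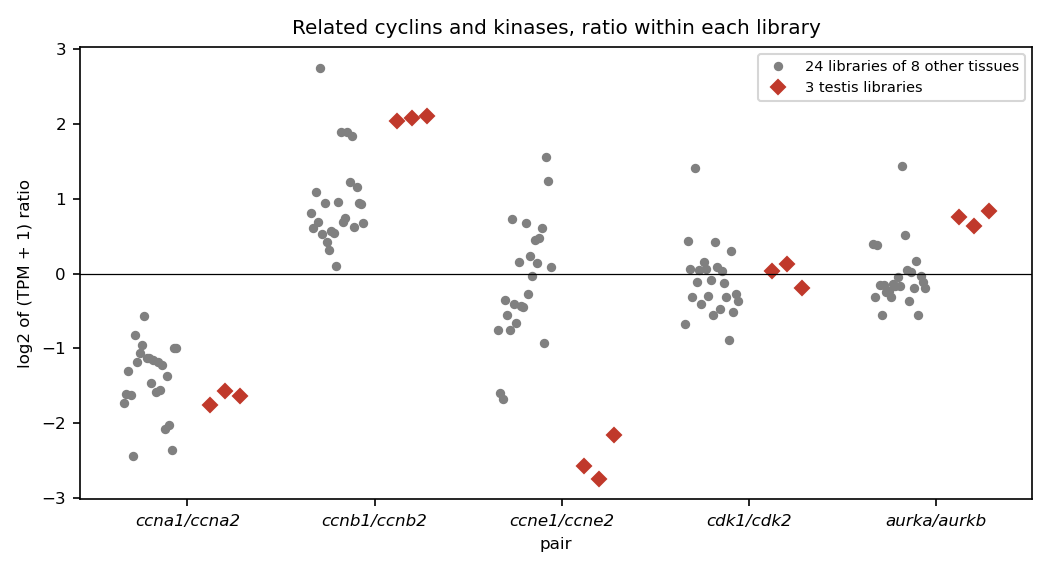
Log2 ratio of (TPM + 1) within each library for 5 pairs of related cyclins and kinases, with the 24 libraries of the 8 other tissues as grey points and the 3 testis libraries as red diamonds. For ccne1/ccne2 the testis libraries, at -2.74 to -2.17, lie below all others, which run from -1.68 to 1.56.

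Outside testis the median level was low, although pcna had 57.2 ± 0.69 TPM in brain and mcm7 41.8 ± 11.3 TPM in spleen (SD, n = 3). The median over the 38 was 2.69 TPM in heart, 2.34 TPM in spleen, 1.59 TPM in muscle, 1.31 TPM in brain, 1.002 TPM in tail, 0.454 TPM in intestine, 0.452 TPM in skin and 0.220 TPM in liver. After median-of-ratios rescaling the lower part of this order changed, with 0.617 in brain, 0.631 in skin, 0.749 in liver, 0.758 in intestine and 0.893 in tail, in rescaled TPM. The median share of the testis mean ran from 0.199% in liver to 2.33% in heart. In liver, 11 of the 38 were at or under 3 estimated counts in all 3 libraries, among them cdk1, aurka and nusap1, and gins2 had no count in any of the 3, which allows up to 3 counts per library. No identifier was that low throughout spleen.

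**Figure D4:**
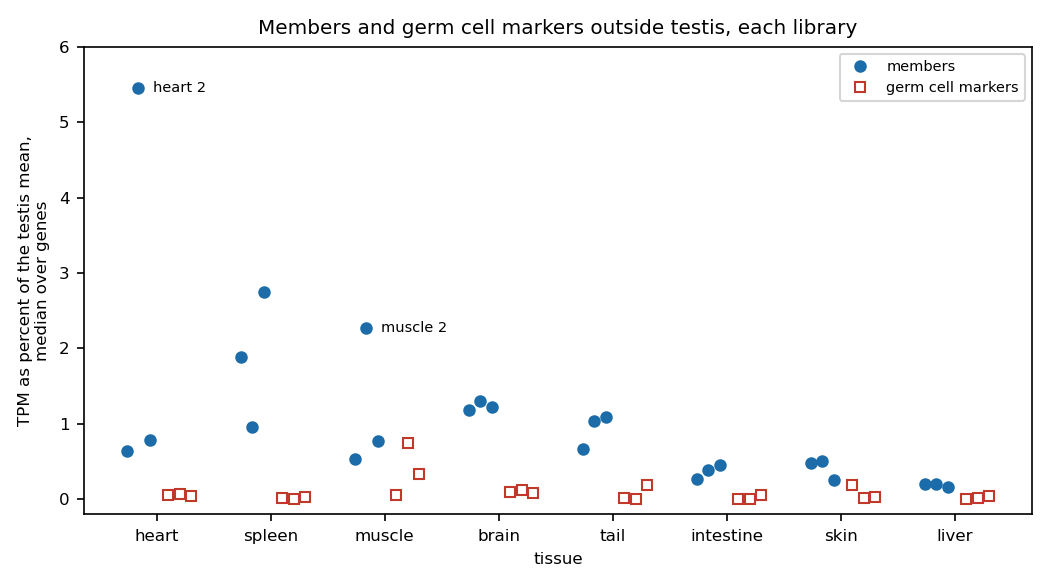
Level in each library outside testis as a percent of the testis mean, as the median over the 38 identifiers (blue points) and over 7 germ cell markers (red squares), by tissue. Heart replicate 2 lies at 5.45% for the members with 0.069% for the germ cell markers, and muscle replicate 2 at 2.27% with 0.738%. Single germ cell markers ranged from 0.0374% to 0.156% in heart replicate 2 and from 0.545% to 3.01% in muscle replicate 2.

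The place of heart and muscle in that order rested on 1 library each. The median over the 38 was 0.792, 6.51 and 0.808 TPM in heart replicates 1 to 3, and 36 of the 38 were highest in replicate 2. Among them cdk1 stood at 0.937, 12.1 and 0.462 TPM, and mki67 at 0.398, 8.73 and 0.610 TPM. pcna stood at 19.998, 63.2 and 18.2 TPM. Of all genes tested, 30.6% were highest in replicate 2 among the heart libraries. Heart replicate 2 was also the highest of the 24 libraries outside testis for 22 of the 38. The share of all genes highest there among the 24 was not computed.

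Beside these values, the 3 erythroid markers were all highest in heart replicate 2, with a summed level of 18320 TPM against 4228 TPM and 7150 TPM, and alas2, of erythroid haem synthesis, stood at 61.5, 393.5 and 80.1 TPM. The blood progenitor marker myb stood at 0.463, 14.9 and 1.02 TPM and the neutrophil marker lyz at 5.004, 21.1 and 7.90 TPM. The progenitor marker runx1, at 2.96, 7.78 and 6.62 TPM, was also highest there, though close to replicate 3. So was the thrombocyte marker itga2b, at 2.33, 5.42 and 4.12 TPM. Not all blood cell markers were raised. The progenitor marker gata2b stood at 0.202, 0.0727 and 0 TPM. The 2 macrophage markers summed to 29.6 TPM against 32.3 TPM and 32.9 TPM, and the 7 lymphocyte markers to 2.56 TPM against 1.96 TPM and 3.38 TPM. The 7 germ cell markers summed to 2.66 TPM there, against 2.20 TPM and 1.66 TPM in the other heart libraries. The 5 heart markers summed to 19064 TPM, against 19664 TPM and 22286 TPM. The part of blood cells in the levels of these genes was not tested.

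In muscle the median over the 38 was 0.503, 3.10 and 1.03 TPM, and 32 of the 38 were highest in replicate 2, against 33.1% of all genes. cdk1 stood at 0.204, 4.77 and 1.19 TPM and aurka at 0, 3.14 and 0.634 TPM, whereas pcna, at 23.5, 23.2 and 26.5 TPM, was level. All 7 germ cell markers were highest in muscle replicate 2, with a sum of 43.5 TPM against 1.46 TPM and 10.8 TPM. lyz was at 252.0 TPM there against 10.6 TPM and 16.5 TPM. Erythroid markers summed to 643.5 TPM against 200.6 TPM and 180.6 TPM, and macrophage markers to 41.8 TPM against 23.3 TPM and 24.5 TPM. Heart markers, with a sum of 46.8 TPM against 10.7 TPM and 22.1 TPM, were highest there too. So were liver markers, at 105.9 TPM against 85.1 TPM and 21.4 TPM. Brain markers, at 210.5 TPM, and the thrombocyte marker, at 1.26 TPM, were also highest in this library. The remaining lists were not. Testis somatic markers summed to 5.46 TPM against 2.33 TPM and 13.8 TPM, and lymphocyte markers to 5.05 TPM against 3.15 TPM and 6.59 TPM. Blood progenitor markers summed to 9.71 TPM against 7.19 TPM and 14.2 TPM. The part of germ cells or blood cells in these values was not tested.

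Each of the 8 tissues was then compared with the mean of the 7 others, testis left out. Where a gene is said not to overlap in these comparisons, the share of all genes so separated was not computed. Counts with a single library left out are given without the share of all genes, so they show only how the calls moved. In heart, limma called 2 of the 38 higher, kif23 and cenpe, against 8.94% of all genes. kif23 was even across the heart libraries, at 2.56, 2.88 and 2.17 TPM, whereas cenpe stood at 0.753, 8.40 and 2.24 TPM. The log2 fold change of kif23 was 1.21 ± 0.17. edgeR on rounded counts called 23 of the 38 higher in heart, against 13.8% of all genes. Without heart replicate 2 limma called 1, without replicate 1 it called 10, and without replicate 3 it called 9. In muscle limma called 0 of the 38 in either direction, against 13.0% of all genes, although 3 were higher at an unadjusted p under 0.05. edgeR called 5 and DESeq2 4 higher in muscle, against 19.0% and 18.3% of all genes, and limma called 3 without muscle replicate 1.

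Spleen, a site of red cell storage and blood formation in fish, had 8 of the 38 called higher, or 4 after rescaling. Over all genes the shares were 12.0% and 8.12%. mcm7 stood at 48.5, 28.7 and 48.2 TPM in spleen and at 2.39 TPM to 57.3 TPM, median 9.95 TPM, in the 21 libraries of the 7 other tissues, a log2 fold change of 1.87 ± 0.30 with an adjusted p of 1.8e-05 by limma. Only 2 of the 21 reached the lowest spleen library. cdt1 stood at 5.35, 1.69 and 1.54 TPM against 0 to 1.78 TPM, median 0.158 TPM, a log2 fold change of 1.47 ± 0.21. This was the tissue with the highest cdt1 outside testis. cdc20 stood at 3.38, 3.05 and 2.81 TPM against a median of 0.365 TPM, a log2 fold change of 1.33 ± 0.25. cdk2 stood at 3.42, 2.61 and 4.19 TPM against a median of 0.763 TPM, a log2 fold change of 1.20 ± 0.23. These 4 were also the ones called after rescaling.

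The other 4 called in spleen were the major rrm2 identifier (1.14 ± 0.39), lig1 (1.07 ± 0.21), kif23 (1.02 ± 0.17) and mcm5 (1.02 ± 0.30), in log2 fold change ± SE. The major rrm2 identifier was uneven, at 6.08, 3.79 and 18.7 TPM, and 9 of the 21 other libraries reached its lowest spleen value. For lig1 5 of the 21 did so, and for kif23 and mcm5 4 each. Spleen replicate 2 was the lowest of the spleen libraries for most of the set, with a median of 1.09 TPM against 2.36 TPM and 3.06 TPM. The sum of its erythroid markers was also the lowest of the tissue, at 18879 TPM against 42335 TPM and 54197 TPM. The library was low over all genes too. Its median difference from the mean of the other spleen libraries, on log2(TPM + 1), was -0.68 for the 38 and -0.34 for all genes. Of all genes, 6.35% were highest in it. The sum of the macrophage markers and the thrombocyte and neutrophil markers were also lowest there. Lymphocyte markers were not, at 30.2 TPM against 30.3 TPM in replicate 1 and 18.4 TPM in replicate 3. The erythroid marker epor stood at 84.3 TPM against 50.9 TPM in replicate 3. The macrophage marker csf1ra stood at 35.5 TPM against 31.5 TPM in replicate 1. The part of these cell types in the result was not tested. Without spleen replicate 2, 15 were called, without spleen replicate 3, 4, and without both heart replicate 2 and muscle replicate 2, 13. In that last fit 3071 of 25183 genes were called higher in spleen. Testis was still higher than spleen in all 33 identifiers that passed the filter without testis, against 48.4% of all genes. It was higher than intestine in the same 33, against 58.6%. The other 5 were called in both comparisons too.

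On the TPM scale 5 of the 38 were called higher in brain, a smaller share than the 48.2% of all genes. The median of all genes tested was 7.12 TPM in brain, close to the 7.30 TPM of testis and above the other tissues. fen1 stood at 13.3, 13.4 and 14.1 TPM in brain and at 0.826 TPM to 8.64 TPM in the 21 other libraries, without overlap, a log2 fold change of 1.99 ± 0.17. pcna stood at 57.9, 57.0 and 56.6 TPM against a median of 19.998 TPM, a log2 fold change of 1.51 ± 0.25. In contrast to spleen, the brain replicates were nearly equal for both genes. The remaining 3 were the major rrm2 identifier (1.53 ± 0.39), mcm7 (1.35 ± 0.30) and ccne2 (1.22 ± 0.22), which stood at 1.96, 2.97 and 3.09 TPM. The major rrm2 identifier was uneven in brain, at 7.53, 7.22 and 18.4 TPM. After rescaling limma called 0 of the 38 higher in brain, against 21.3% of all genes, with 1 higher at an unadjusted p under 0.05 and mcm7 at -0.02. edgeR and DESeq2 on rounded counts each called 1 of the 38 higher and 12 and 11 lower, the latter against 22.8% and 23.2% of all genes. Relative to testis, the fork group stood at 6.62% in brain and the mitotic group at 0.732%. In spleen these shares were 5.23% and 1.21%, a smaller gap, but the difference between the tissues was not tested.

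In tail 1 of the 38 was called, against 16.3% of all genes. mcm3, a helicase subunit, stood at 12.1, 11.3 and 10.9 TPM in tail and at 0.183 TPM to 7.64 TPM, median 1.098 TPM, in the 21 other libraries. The groups did not overlap, and the log2 fold change was 2.29 ± 0.32 with an adjusted p of 2.7e-06 by limma, or 2.08 after rescaling. No other subunit was called in tail, where mcm2 stood at 1.85 TPM to 2.53 TPM, mcm4 at 2.90 TPM to 5.56 TPM, mcm5 at 2.28 TPM to 3.30 TPM, the major mcm6 identifier at 2.95 TPM to 4.01 TPM and mcm7 at 9.66 TPM to 11.7 TPM. Between 1 and 3 of the 38 were called in tail when single libraries were left out. 3 were called without heart replicate 2 or without tail replicate 1, and 2 without brain replicate 2, intestine replicate 2, muscle replicate 2, spleen replicate 3 or tail replicate 3.

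The balance among the 6 Mcm2-7 subunits, taken with the major mcm6 identifier, was computed in each library. In testis mcm7 stood at 3.85 ± 0.01 times (SD, n = 3) the median of the 5 other subunits. The ratio was 14.9 ± 4.43 in brain, 14.9 ± 2.81 in liver, 14.0 ± 5.45 in spleen, 8.24 ± 2.04 in heart and 3.30 ± 0.68 in tail. The 3 testis values, 3.83 to 3.86, were below those of 21 of the 24 other libraries. For mcm3 the ratio was 0.946 ± 0.068 in testis and 3.56 ± 0.68 in tail, and the 3 tail values were above those of all 24 other libraries. In liver it was 0.337 ± 0.071, below all 24 other libraries. These ratios are descriptions without a test, and the liver values rest on 0.138 TPM to 2.68 TPM for the subunits other than mcm7.

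**Figure D5:**
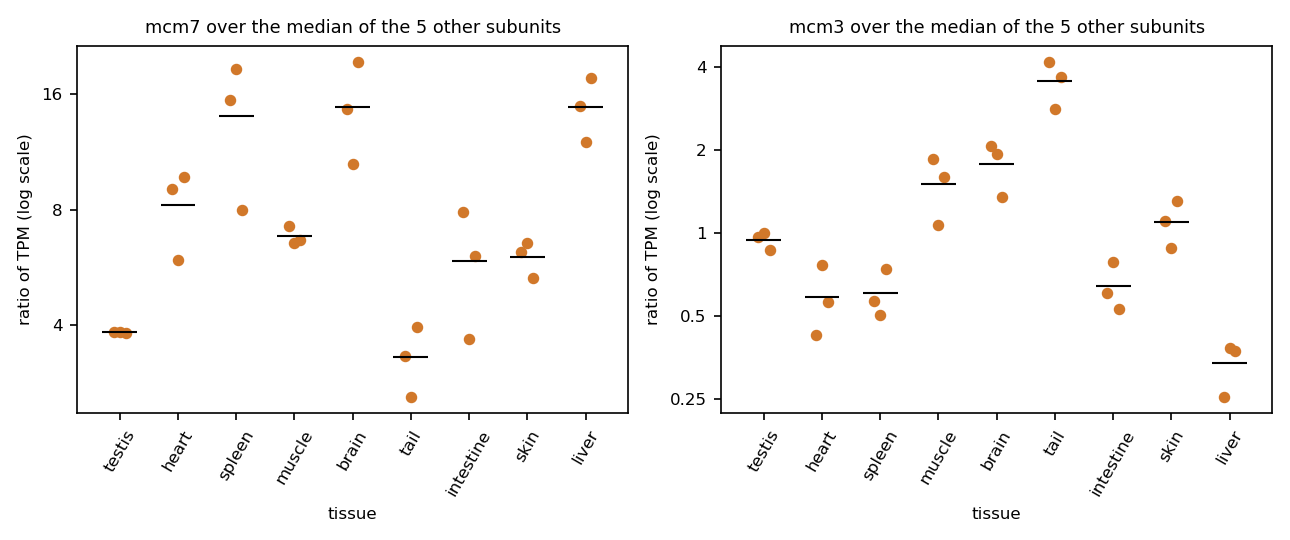
TPM of mcm7 (left) and of mcm3 (right) divided by the median of the 5 other subunits of the Mcm2-7 helicase, on a log scale, for the 3 libraries of each tissue (points) with their mean (bar). The testis points for mcm7 lie at 3.83 to 3.86, and the tail points for mcm3 lie at 2.82 to 4.17, above all other libraries.

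On the TPM scale, liver, skin and intestine had the lowest medians. In liver 8 of the 38 were called lower, a smaller share than the 45.3% of all genes. The median of all genes tested was 0.619 TPM in liver, the lowest of the 9 tissues. pcna stood at 5.32, 4.75 and 3.91 TPM in liver against 10.0 TPM to 63.2 TPM in the 21 other libraries, a log2 fold change of -2.34 ± 0.25 with an adjusted p of 2.6e-08 by limma. rrm1 (-1.44 ± 0.24), the major rrm2 identifier (-1.88 ± 0.39) and mcm4 (-1.16 ± 0.34) were without overlap too. How many of all genes were so separated in liver was not computed. fen1, mcm3, the major mcm6 identifier and tpx2 completed the 8, with log2 fold changes from -1.40 to -1.002. After rescaling 1 of the 38, the major rrm2 identifier, was lower in liver, against 17.6% of all genes. mcm2 stood apart from the other members there, at 1.57, 2.68 and 1.40 TPM, with a log2 fold change of 0.06 before and 1.32 after rescaling, the latter called, against 12.4% of all genes called higher.

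In intestine 2 of the 38 were called lower, against 22.0% of all genes, and 0 after rescaling, when 6 were lower at an unadjusted p under 0.05 by limma. The 2 called before rescaling were fen1, at 1.14, 1.33 and 1.11 TPM (-1.14 ± 0.17), and rrm1, at 1.03, 1.61 and 1.70 TPM (-1.04 ± 0.24). At an unadjusted p under 0.05 limma had 16 of the 38 lower in intestine. Without heart replicate 2, 1 was called, and 4 were called without heart replicate 1, intestine replicate 2 or spleen replicate 2. In skin 3 of the 38, all helicase subunits, were called lower, a share close to the 8.23% of all genes. After rescaling 2 of the 38 were lower in skin, against 1337 of 25245 genes. mcm7 stood at 4.96, 4.81 and 2.39 TPM against 5.57 TPM to 57.3 TPM (-1.66 ± 0.30), and mcm2 at 0.455, 0.440 and 0.451 TPM against at least 0.741 TPM (-1.04 ± 0.29). Both were without overlap. The third was the major mcm6 identifier (-1.02 ± 0.33). Without heart replicate 2, 1 of the 38 was called lower in skin.

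Neighbours in the order of the median level were compared directly. Testis was above heart in all 33 identifiers that passed the filter without testis and in the other 5, against 50.9% of all genes. The other 7 pairs were separated by few of the 38. Spleen was above heart for 3 (cdt1, cdc20 and mcm7; 22.4% of all genes differed in either direction). It was above muscle for 4 (mcm7, cdt1, mcm5 and mcm2; 27.5%). Muscle was below brain for 5 (fen1, ccne2, mcm7, pcna and the major rrm2 identifier; 55.5%). Tail was above brain for mcm3 and mcm4 and below it for fen1, ccne2 and mcm7 (53.9%). Tail was above intestine for 6 (mcm3, rrm1, the major rrm2 identifier, mcm4, pcna and cdc6; 35.5%). Skin was above liver for pcna alone (32.9%). Between skin and intestine limma called 0 of the 38 (29.1%), with 2 higher in skin at an unadjusted p under 0.05, whereas edgeR called 3 in each direction (41.7%). A member that was not called may still differ by less than the fold limit.

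Some of these directions turned with the scale. Between muscle and brain, rescaling left 0 of the 38 lower and 1 higher in muscle (kif11; 39.9% of all genes differed), and edgeR called 14 higher and 1 lower in muscle (49.8%). Between skin and liver, 2 were lower in skin after rescaling (mcm2 and mcm7; 31.4%), pcna was not called, and edgeR called 3 in each direction (39.6%). After rescaling limma called 0 between spleen and heart (20.7%), where edgeR and DESeq2 each called 1 in each direction, and 3 higher in spleen than in muscle (26.1%). Tail was then above brain for 3 and below it for fen1 (41.9%), and above intestine for mcm3 and rrm1 (29.3%), and skin was above intestine for gins1 (32.0%). Without heart replicate 2 and muscle replicate 2, spleen was above heart for 9 (12.8% of all genes were higher in spleen) and above muscle for 9 (12.3%) on the TPM scale.

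The members moved together outside testis to different degrees. Over the 24 libraries, the Pearson correlation of each member with the mean of the others, on log2(TPM + 1), was 0.93 for top2a, 0.91 for cdk1 and 0.91 for mki67. It was 0.55 for ccne2, 0.34 for ccna1, 0.32 for ccne1 and 0.30 for the minor mcm6 identifier. ccna1 and the minor mcm6 identifier passed the filter only through testis, and the latter was at or under 3 counts throughout 7 of the 8 tissues, so their values say little of how they follow the others. These values are descriptions, and the 24 points share 8 tissues. Without heart replicate 2 and muscle replicate 2 the correlation was 0.91 for top2a, 0.49 for ccne2, 0.28 for ccne1, 0.49 for ccna1 and 0.54 for the minor mcm6 identifier, and that of plk1 went from 0.67 to 0.45.

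Other genes of the pathway were taken from a list of 132 symbols, of which 119 matched 120 identifiers, all tested. In testis 113 of the 120 were called higher (median 4.21 on the log2 scale), against 46.9% of all genes, and 14 of the 120 passed the filter only with testis. All 16 genes of origin licensing and firing rose, among them the kinase pair dbf4 (6.26) and cdc7 (5.85) that activates the helicase. All 21 genes of polymerases and the fork rose, among them the chromatin assembly factor chaf1a (6.58). All 15 of the checkpoint and kinetochore rose, led by mad2l1 (6.80). foxm1, a transcription factor of mitotic genes, had a mean of 472.4 TPM in testis and 1.05 TPM elsewhere (8.21 ± 0.41), and the securin gene pttg1 had 436.6 TPM and 1.88 TPM (7.52 ± 0.37).

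The other 7 of the 120 were not called. The G1 cyclin ccnd1 and its kinases cdk4 and cdk6 had log2 fold changes of -0.70 ± 0.33, 0.27 ± 0.20 and 0.28 ± 0.31 in testis, with adjusted p-values of 0.061, 0.23 and 0.42 by limma. ccnd3, another D-type cyclin, rose by 6.94 ± 0.19, from 0.221 TPM to 145.1 TPM. The stress-induced small reductase subunit rrm2b (-0.25, adjusted p = 0.52 by limma), the pocket protein gene rbl2 (-0.32, 0.15) the kinase inhibitor cdkn2c (-0.04, 0.83) and 1 of the 2 identifiers listed as CIT (ENSDARG00000088825; -0.46, 0.044) were the others. None of the 120 was called lower on the TPM scale. After rescaling 109 were called higher and 3 lower (ccnd1, rbl2 and rrm2b), against 16.5% of all genes lower. edgeR called 4 lower (the same 3 and cdk4), against 20.8%.

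In spleen 35 of the 120 were called higher, or 14 after rescaling, against 12.0% and 8.12% of all genes, and 23 without spleen replicate 1. The largest log2 fold changes were those of the inhibitor cdkn1a (3.49 ± 0.39), the phosphatase cdc25b (2.59 ± 0.25) and the phosphatase cdkn3 (1.94 ± 0.20). cdkn1a encodes p21, which arrests the cell cycle. By group, 7 of 16 genes of origin licensing and firing and 8 of 21 of the polymerases and fork were called higher in spleen.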

How the data were processed

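RNA was measured in 27 libraries, 3 from each of 9 tissues. Per the labels, total RNA was extracted with TRIzol, poly(A)-selected and made into strand-specific libraries. The submitters' processing notes name cutadapt 1.18, HISAT2 2.1.0, SAMtools 1.9, kallisto 0.43.0 and the build GRCz11, without saying which step each served. The deposited files give, for each gene identifier, TPM values and estimated counts made by the authors, beside lengths. TPM is relative to all transcripts of a library, so a few abundant transcripts lower the TPM of all others.

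Samples were grouped by the tissue label. TPM was tested as log2(TPM + 1) with limma 3.58.1 in R 4.3.3, with a mean per tissue over all 27 libraries and a trended prior, on the 25245 identifiers with at least 1 TPM in at least 3 libraries. A call required a Benjamini-Hochberg adjusted p under 0.05 over all of these and an absolute log2 fold change of at least 1. The fit recovered known changes in testis when tested on simulated data. Those data had the same spread for every gene, and the genes changed were not low in counts. The fold limit was not applied there, so the simulation does not cover the calls on genes with few counts. It changed few genes, as many up as down, on means otherwise equal in all tissues. A shift of many genes in 1 direction, as in testis, was thus not covered. Symbols came from a table of gene IDs, in which 29201 of the 32524 identifiers had one. Pair ratios were tested with scipy 1.17.1. The members and gene lists were chosen with earlier results of these data known. All members were named. For the testis contrast, values in every library were to be given for the 5 largest and 5 smallest log2 fold changes and for the pairs. For the other contrasts they are given for only some of the members called. Of the other pathway genes, at most 3 per list were named by size among those called, with those not called where a sentence needed them. The 10 genes most like the members outside testis were also named.

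Alternative settings were no fold limit, no low-value filter, pseudocounts of 0.1 and 0.01, median-of-ratios rescaling, quantile normalization, edgeR 4.0.16 and DESeq2 1.42.0 on rounded estimated counts, the replicate number as a block, and leaving out each of the 27 libraries. Leaving out heart replicate 2 and muscle replicate 2 together was added after the data were seen. The build of the gene table differs from that of the files, so no positions are given, and the promoter motifs planned were not searched here.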

Additional observations from a re-analysis of the deposited data

How the results depend on the processing

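The higher level in testis kept its direction and its call in all 1439 alternative values of the 38 identifiers, with log2 fold changes from 1.53 to 8.98. These values include those of the 5 identifiers that passed the filter only with testis. DESeq2 gave no adjusted p for cdk1 and kif11, so it called 36. With a testis library left out 37 were called, since the minor mcm6 identifier no longer passed the filter on low values.

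Counts outside testis moved with the scale. Most counts in this paragraph are not set beside the share of all genes, so they show only how the calls moved. Not every tissue is listed for every setting. Counts called higher by edgeR were 1 in brain, 23 in heart, 1 in intestine, 1 in liver, 5 in muscle, 2 in skin, 16 in spleen and 4 in tail. DESeq2 gave 1, 18, 1, 1, 4, 2, 11 and 4. Of 25245 genes, edgeR called 3484 higher in heart and 3915 in spleen, and 5766 lower in brain. DESeq2 called 3288 of 24724 genes higher in heart and 3415 of 25214 in spleen. Counts called lower by edgeR were 12 in brain, 3 in intestine, 4 in liver, 4 in skin and 3 in tail. DESeq2 gave 11, 4, 7, 6 and 3. After median-of-ratios rescaling 0 were higher in brain and 4 in spleen, 0 lower in intestine and 1 in liver. After quantile normalization 0 were higher in brain, 5 in heart and 5 in spleen, and 2 were lower in brain, 0 in intestine and 1 in liver. With no fold limit 10 were higher in brain, 9 in heart, 1 in muscle, 18 in spleen and 7 in tail, and 14 were lower in intestine, 25 in liver, 7 in skin and 2 in tail. With a pseudocount of 0.1 these were 12, 7, 1, 19 and 7, and 15, 31, 7 and 2. With 0.01 they were 12 in brain, 6 in heart, 18 in spleen and 8 in tail higher, and 15, 31, 8 and 2 lower. With heart replicate 2 and muscle replicate 2 both left out, an alternative chosen after the data were seen, 1 was higher in heart, 13 in spleen and 4 in tail, and 1 was lower in intestine and 1 in skin. Pathway genes higher in spleen numbered 14 after rescaling, 68 with no fold limit, 56 with a pseudocount of 0.1 and 53 with 0.01. The cause of these moves was not tested.

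With single libraries left out, the counts higher were 1 to 10 in heart, 0 to 3 in muscle, 4 to 15 in spleen and 1 to 3 in tail, those lower 1 to 4 in intestine and 1 to 4 in skin, and pathway genes higher in spleen 23 to 49. These ranges too are not set beside the share of all genes.

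Single values that changed sign were mcm7 in brain, at -0.0272 by DESeq2, -0.23 by edgeR, -0.0247 after rescaling and -0.25 after quantile normalization, pcna in brain, at -0.15 by edgeR, and fen1 and tpx2 in liver, at 0.18 and 0.0015 after quantile normalization. Among the alternative values of single members, 2442 kept direction and call, and 92 kept their direction and lost their call. Of the 2442, 1439 were of the testis contrast. All of the 92 were of the other tissues, 38 of them in liver. Of the pair ratios, ccna1/ccna2 changed sign with pseudocounts of 0.1 (1.47) and 0.01 (2.73) and from counts per effective length (1.03), and ccnb1/ccnb2 with the same (-0.147, -1.181 and -0.0347). aurka/aurkb kept its direction with them (1.04, 1.54 and 1.08). ccne1/ccne2 kept its direction and lost its call with 0.01 (-2.36) and from counts (-1.67).

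Replicate numbers are shared between tissues. Over 108 pairs of same-numbered libraries the correlation of deviations from the tissue means averaged 0.107, from -0.0532 to 0.325, and over 216 pairs with different numbers -0.0528, from -0.236 to 0.141. The mean was higher for shared numbers. Deviations within a tissue sum to 0, so the mean for different numbers largely follows from it and is no separate comparison. Not every same-numbered pair passed 0.1, and the main fit did not treat the libraries as paired. The minor rrm2 identifier was at 0 TPM in replicate 3 of brain, intestine, muscle and skin, a trait shared by number. Whether same-numbered libraries came from the same fish or batch was not tested. With the replicate number as a block, 38 were higher in testis and 8 in spleen, and 9 were lower in liver against 8 without the block, and no other count changed. The members' median estimated count was under 10 in the 3 liver libraries, in intestine replicate 1 and in skin replicate 3, so small differences there could not be resolved at this depth.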

Other observations

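Among genes outside the 38, those most like their mean over the 24 libraries without testis were, by Pearson correlation on log2(TPM + 1), the condensin subunit NCAPG2 (0.94), the kinetochore gene kntc1 (0.94), IQGAP3 (0.94), the polymerase subunit POLE (0.93), ATAD2 (0.93), the condensin subunit SMC4 (0.92), the kinetochore gene CENPF (0.92), the chromatin assembly factor chaf1a (0.92), the centromere gene CENPI (0.92) and the thymidine kinase TK1 (0.91). Of the 100 genes most like the members, 40 were on the list of 120 other pathway identifiers. The values are descriptions over libraries that share 8 tissues.

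Muscle replicate 2 held lyz at 252.0 TPM and sycp1, of the synaptonemal complex, at 15.5 TPM, against at most 3.09 TPM of sycp1 in the other muscle libraries. In the same library ccnb1 stood at 6.995 TPM and nusap1 at 5.60 TPM. In brain the citron kinase identifier ENSDARG00000088825, on the list for its part in cytokinesis, had a log2 fold change of 6.51 over the 7 other tissues, the largest of any pathway identifier outside testis, and in testis it was not called (-0.46, adjusted p = 0.044 by limma).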
